A study of Mus musculus with 2 samples.

Results

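Oligodendrocyte precursor cells (OPCs) are the barcodes that carry the OPC type in the annotation deposited with the optic nerve scRNA-seq data. Of 959 oligodendrocyte lineage barcodes without injury 58 were OPCs, as were 17 of 410 after injury, 75 of 1369 in all. The share was 6.05% (exact 95% binomial interval 4.62 to 7.75%) without injury and 4.15% (2.43 to 6.56%) after it, and these intervals overlapped. This is a share of the lineage barcodes, which were themselves fewer after injury, and not of all nerve cells. Among all nerve cells, in equal numbers per library, the paper reported a decrease of OPCs after injury. Both libraries were made from wild-type 129S1/SvlmJ mice of both sexes, with no transgene or drug, and each pooled the cells of 5 optic nerves from mice that were 10 weeks old per the methods. The injured nerves had received an optic nerve crush (ONC) at 8 weeks of age and were collected 2 weeks later, whereas the uninjured nerves had not been crushed. In the labels both samples are 56 days old and carry the crush as treatment, so the groups follow the sample titles. A pooled library is a single sample of its condition, so no test between conditions was possible, and no p-value is given.

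OPCs are the dividing, migrating cells of the oligodendrocyte lineage that persist in the adult optic nerve. They respond to platelet-derived growth factor through the receptor PDGFRα, carry the proteoglycan NG2 (encoded by Cspg4), receive synaptic input from axons, and lose these features as they turn into newly formed oligodendrocytes (NFOs) and then into myelinating oligodendrocytes. After injury in the central nervous system, OPCs are a source of new oligodendrocytes and a part of the glial scar.

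The UMIs (counted RNA molecules) behind each barcode were recovered from the deposited normalized expression values (NE). NE scales a gene's share of the barcode's UMIs by 10000, adds 1 and takes the natural log. Levels below are CPM (UMIs of a gene scaled to 1000000 UMIs) summed over the OPCs of a library, and ratios of CPM have exact conditional 95% intervals, which cover counting error only. The OPCs of the uninjured library held 171329 UMIs (median 2290 per barcode, range 490 to 12673), and those of the injured library held 117597 UMIs (median 4120, range 638 to 16983). The 7 deepest injured OPCs held 11054 to 16983 UMIs each and together 78.2% of the UMIs of injured OPCs, whereas a single uninjured OPC exceeded 8000 UMIs. Summed levels of injured OPCs therefore rest mostly on 7 barcodes. No barcode sequence was shared between the libraries.

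Marker genes are described first. The paper identified OPCs by Pdgfra, NFOs by Fyn and oligodendrocytes by MAG and MBP. Differences between types in these genes were therefore built into the labels and do not check them. Of 7 OPC markers, an uninjured OPC had UMIs of a median of 6 (range 3 to 7), and all 7 were found in 28 of 58 barcodes. An injured OPC had a median of 7 markers (range 1 to 7), and all 7 were found in 9 of 17 barcodes. By comparison, NFOs had a median of 3 markers without injury and 2 after it, and 748 of 857 uninjured and 226 of 293 injured oligodendrocytes had none. Of the injured OPCs, 4 of 17 had no Pdgfra UMI, and these held 638, 865, 1099 and 2787 UMIs. All 4 were below the injured median of 4120 UMIs, and the last was above the uninjured median of 2290. Of the uninjured OPCs, 5 of 58 had no Pdgfra UMI.

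**Figure D1:**
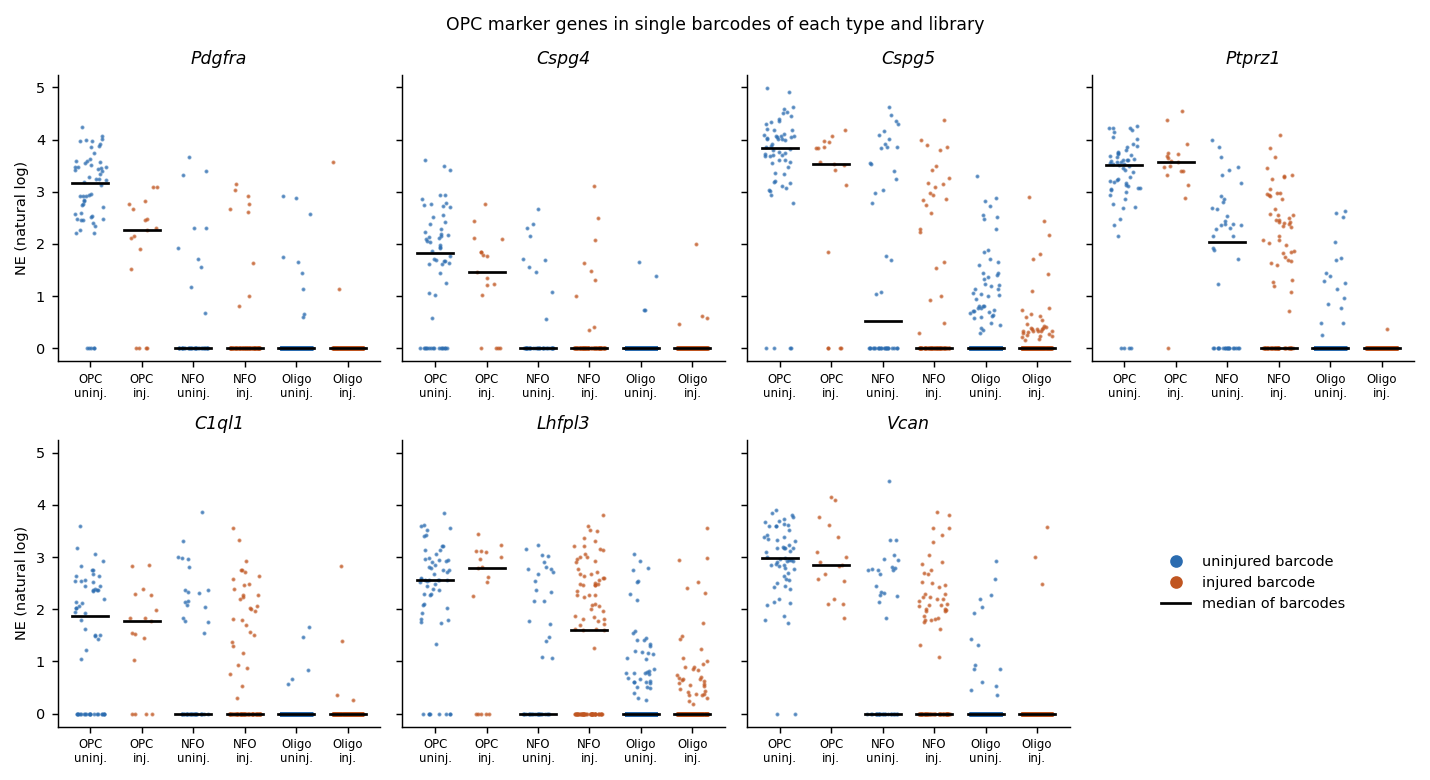
NE (natural log scale, y axis) of the 7 OPC marker genes in every barcode of each type, with uninjured barcodes in blue, injured barcodes in orange and the median of barcodes as a black line. The median of Pdgfra is 3.17 in uninjured and 2.26 in injured OPCs and 0 in NFOs and oligodendrocytes of both libraries, whereas Lhfpl3 and Ptprz1 extend into many NFOs.

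Pdgfra, the receptor for platelet-derived growth factor, was the OPC marker with the steepest fall along the lineage. In GRCm38 it lies on chromosome 5 from 75152292 to 75198215 on the plus strand. Uninjured OPCs held 367 Pdgfra UMIs in 53 of 58 barcodes, with a lowest NE of 0, a median of 3.17 and a highest of 4.23. The level was 2142 CPM (1929 to 2373), against 202 CPM in NFOs and 2.89 CPM in oligodendrocytes, ratios of 10.6 (6.70 to 17.8) and 741 (419 to 1447). Most OPCs thus stood above the other types, although 10 of 44 NFOs also had a Pdgfra UMI. In the injured library the ratio over NFOs was 22.5 (13.1 to 41.6).

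The cell surface and matrix markers separated OPCs from oligodendrocytes by more than they separated them from NFOs. Cspg4, the NG2 proteoglycan, had 98 UMIs in 42 of 58 uninjured OPCs and was 4.14 times (2.31 to 8.05) above NFOs and 593 times (224 to 2221) above oligodendrocytes. Cspg5 (neuroglycan C) was the most abundant marker, with 866 UMIs in 54 of 58 barcodes (median NE 3.84, highest 5.00), 3.93 times above NFOs in the uninjured and 16.3 times in the injured library. Ptprz1, a receptor-type phosphatase and proteoglycan, had 527 UMIs in 54 barcodes and was 3.41 times (2.70 to 4.34) above NFOs, and 4.54 times (3.88 to 5.31) in the injured library. Vcan (versican), C1ql1 (a secreted C1q-like protein) and Lhfpl3 were 399, 523 and 111 times above oligodendrocytes in the uninjured library. Against NFOs these ratios were only 1.35 (1.10 to 1.68), 1.29 (0.905 to 1.86) and 2.42 (1.81 to 3.30), so Vcan, C1ql1 and Lhfpl3 were shared between OPCs and NFOs.

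Promoters are shown for the receptor and the proteoglycan genes Cspg4 and Ptprz1, since these were at least 4-fold above both later types in 1 library or both and moved together along the lineage. They were taken from RefSeq (GRCm38.p6), which held promoters for 5 of the 7 markers, and run 5′ to 3′ in the gene's direction from 250 bases before to 50 bases after the start. The windows are chr5:75152001-75152300 for Pdgfra, chr9:56864854-56865153 for Cspg4 and chr6:22875252-22875551 for Ptprz1, all on the plus strand. Capitals mark matches on either strand to ACAAAG or ACAAT, the core letters bound by SOX proteins, or to CAGCTG, an E-box.
Pdgfra: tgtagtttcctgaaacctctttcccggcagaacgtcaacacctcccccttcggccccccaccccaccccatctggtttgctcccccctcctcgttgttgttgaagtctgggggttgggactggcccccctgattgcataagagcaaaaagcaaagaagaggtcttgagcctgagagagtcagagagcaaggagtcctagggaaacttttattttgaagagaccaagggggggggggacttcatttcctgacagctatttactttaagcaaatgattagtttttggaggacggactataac
Cspg4: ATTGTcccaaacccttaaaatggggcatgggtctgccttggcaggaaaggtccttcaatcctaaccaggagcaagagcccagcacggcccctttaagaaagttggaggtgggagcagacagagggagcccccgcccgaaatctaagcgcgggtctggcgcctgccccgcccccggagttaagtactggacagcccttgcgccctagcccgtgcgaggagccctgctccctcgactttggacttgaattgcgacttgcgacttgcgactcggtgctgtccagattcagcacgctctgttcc
Ptprz1: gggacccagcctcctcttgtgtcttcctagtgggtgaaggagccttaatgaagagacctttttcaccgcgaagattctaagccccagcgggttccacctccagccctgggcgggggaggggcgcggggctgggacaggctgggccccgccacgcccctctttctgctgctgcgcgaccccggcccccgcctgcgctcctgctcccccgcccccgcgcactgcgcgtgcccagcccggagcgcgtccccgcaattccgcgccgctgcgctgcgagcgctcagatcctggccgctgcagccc
Pdgfra and Ptprz1 held none of these words, and Cspg4 held ACAAT on the minus strand. The general E-box CANNTG, also searched but not put in capitals, had 2 matches in Pdgfra and 0 in Cspg4 and Ptprz1. The GC content was 51.0% for Pdgfra, 60.0% for Cspg4 and 71.7% for Ptprz1, against a median of 52.7% over 27025 RefSeq promoters of the same length. Of all promoters, 18.7% held ACAAAG, 31.6% held ACAAT and 16.1% held CAGCTG. The genes described next as higher in uninjured OPCs had promoters for 54 of 81, and 14.8%, 27.8% and 16.7% of these held the same words. CANNTG was in 53.7% of these and in 72.15% of all promoters. These matches are a description of letters.

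Across all genes, the OPC profile was described with the genes at least 4-fold above both NFOs and oligodendrocytes of the same library, with both intervals above 1 and at least 20 summed UMIs. Without injury 81 of 1619 measured genes (5.00%) met this, and after injury 60 of 1162 (5.16%). Since the authors drew the types from these same expression values, the differences between types are descriptions and not tests. Of the 54 genes high in injured OPCs that could be measured in uninjured OPCs, 21 were high there too (38.9%), and these were 77.8% of the 27 genes high in uninjured OPCs that could be measured in injured OPCs. The 21 included Pdgfra, Cspg4, Ccnd1, Mmp16, Itga9, F3, Csmd3, Grm5, Kcnip3, Lrrc4c, Pcdh15, Nrxn3, Xylt1, Spry1, Vegfa and Zeb1.

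**Figure D2:**
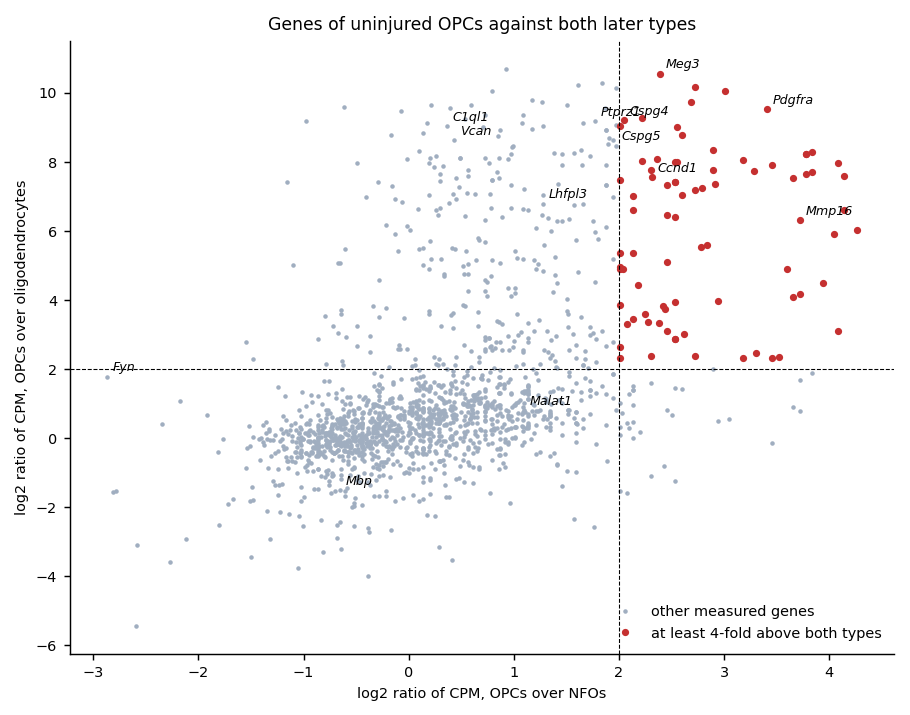
Log2 ratio of CPM of uninjured OPCs over NFOs (x axis) and over oligodendrocytes (y axis) for each of 1619 measured genes, with the 81 genes at least 4-fold above both types in red and the 4-fold limits dashed. Pdgfra and Mmp16 lie in the red corner, and Cspg5, Ptprz1 and Vcan lie left of the vertical limit.

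The genes with the largest ratios included genes of matrix turnover, adhesion, the cell cycle and signalling. Mmp16, a membrane-bound matrix metalloproteinase, had 72 UMIs in 36 of 58 uninjured OPCs and was 13.2 times (4.33 to 65.4) above NFOs and 79.3 times above oligodendrocytes. It was 29.2 times above NFOs in the injured library. Itga9, an integrin subunit, had 63 UMIs in 33 barcodes and was 6.92 times (2.81 to 22.1) above NFOs. Ccnd1 (cyclin D1, which drives entry into S phase) had 271 UMIs in 38 barcodes and was 4.96 times (3.40 to 7.50) above NFOs and 188 times above oligodendrocytes. F3 (tissue factor) was 9.71 times (3.15 to 48.6) above NFOs, with 53 UMIs in 22 barcodes. The adhesion molecule Chl1 (17.6 times), the adhesion-related Csmd3 (5.77 times), and Cdh11 and Slc1a4 (each 22 UMIs against 0) were also among the leading genes. The sodium channel Scn3a was another, with 22 UMIs in 18 OPCs and 0 in NFOs. Its ratio was 4.03 with 3 UMIs in place of 0, with a lower limit of 3.01. Meg3, a noncoding RNA, had 124 UMIs in 42 OPCs, 13 in NFOs and 2 in all 857 oligodendrocytes.

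Some leading genes came from a single barcode. Hist1h2ap (75 UMIs), Mirt1 (44 UMIs) and Top2a (32 UMIs) were each found in 1 of 58 uninjured OPCs, and Hist1h2ae (35 UMIs) was found in 2. Top2a (topoisomerase II alpha) and the replication-dependent histones mark cells in S phase and mitosis. These 4 leading genes thus rest on 1 or 2 barcodes.

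OPCs carried a set of receptors and channels that neurons also use. Over all 1619 measured genes 5.00% were high in uninjured OPCs. Of the glutamate and GABA receptor genes, 2 of 11 measured were high. These were Grm5, a metabotropic glutamate receptor (48 UMIs in 26 OPCs, 4 UMIs in NFOs and 1 in oligodendrocytes), and the NMDA receptor subunit Grin3a (36 UMIs in 23 OPCs, 4.95 times above NFOs). Gria2, the most abundant AMPA receptor subunit, had 241 UMIs in 52 of 58 OPCs and was 2.14 times above NFOs and 150 times above oligodendrocytes. Of the ion channel genes, 3 of 6 measured were high, namely Scn3a, Kcnip3 and Kcnd2, the last 2 being parts of A-type potassium channels. The median log2 ratio over oligodendrocytes was 5.76 for the 11 receptor genes and 7.72 for the 6 channel genes, against 0.56 over all measured genes. Genes entered these medians through at least 20 UMIs in uninjured OPCs, so members low in OPCs are left out. Summed over all 40 members, the receptor list was at 5101 CPM in uninjured OPCs and 640 CPM in oligodendrocytes. The 34 members of the channel list came to 2562 and 1741 CPM.

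The counts of high genes in this paragraph stand beside 5.00% over all 1619 measured genes. Of 25 transcription factors measured, 3 were high in uninjured OPCs. Their median log2 ratio was 0.72 over NFOs and 2.54 over oligodendrocytes, against 0.19 and 0.56 over all measured genes. Olig1 (530 UMIs in 50 barcodes) and Olig2 (175 in 42), the lineage factors, were only 1.65 and 2.09 times above NFOs. Sox6 was 0.891 times the level of NFOs and 442 times that of oligodendrocytes. Zeb1, Etv4 and Myt1 were the 3 high factors. Matrix and proteoglycan genes (2 of 17 high, median log2 0.89 over NFOs and 7.97 over oligodendrocytes), adhesion and guidance genes (5 of 38, 0.81 and 3.72), growth factor receptors (1 of 7, 1.29 and 6.48) and Notch and Wnt genes (1 of 3, Fzd9, a Wnt receptor) showed the same order of medians, with the largest distance to oligodendrocytes. These medians also cover only members with at least 20 UMIs in uninjured OPCs. Summed over all members, growth factor receptors were at 4839 CPM in OPCs, 1530 in NFOs and 1522 in oligodendrocytes. Matrix genes came to 18619, 9476 and 1747 CPM, and adhesion genes to 17236, 10560 and 5971 CPM.

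Genes of the following stages were present in OPCs at lower levels. Of 8 committed precursor genes measured, 0 were high in uninjured OPCs, and their median log2 ratio over NFOs was -1.12. Gpr17, a receptor of differentiating precursors, had 92 UMIs in 32 of 58 OPCs (0.447 times the level of NFOs), Bcas1 had 128 in 46 (0.472 times) and Fyn had 26 in 18 (0.137 times). Neu4, a sialidase, was level with NFOs (1.13 times, 0.856 to 1.49). Myelin genes had a median log2 ratio of -2.34 to oligodendrocytes. Guidance and growth-inhibiting genes of the lineage were also measured: Rtn4 (Nogo) had 52 UMIs in 27 uninjured OPCs at 0.186 times the level of oligodendrocytes, Omg had 23 UMIs in 17, and Adgrb3, an adhesion receptor, had 39 UMIs in 26 and was 5.36 times above NFOs.

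Between the libraries, injured OPCs were compared with uninjured OPCs over 3153 genes with at least 20 summed UMIs. A gene was called where the ratio of CPM was at least 2-fold and its interval excluded 1. By this rule 302 genes (9.58%) were higher and 184 (5.84%) lower in injured OPCs, and the median log2 ratio over all measured genes was 0.18. Counts of list members called higher or lower below stand beside these shares. With mitochondrial, ribosomal protein and Malat1 UMIs left out of the total the median was 0.06, and 212 genes were higher and 234 lower, so the balance of higher over lower calls turned with the scaling. Trimmed mean scaling gave 256 higher and 214 lower. Malat1, a nuclear noncoding RNA, alone fell from a median of 8.34% to 4.33% of a barcode's UMIs, and it was under 0.5% in 5 of 17 injured and in 0 of 58 uninjured OPCs (an upper limit of 6.16% by the exact interval). Among OPCs of at least 3000 UMIs, chosen after seeing the data, with 19 uninjured and 10 injured barcodes, 182 genes were higher and 102 lower, and among OPCs under 8000 UMIs, with 57 and 10 barcodes, 132 were higher and 67 lower.

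Immediate early genes were among the genes most clearly higher in injured OPCs. Egr1, an immediate early transcription factor, had 43 UMIs in 12 of 58 uninjured and 102 in 12 of 17 injured OPCs, a ratio of 3.46 (2.40 to 5.06). Its median NE was 0 in uninjured and 1.84 in injured OPCs, so most injured OPCs held Egr1 UMIs and most uninjured OPCs held none, although the highest barcodes of both libraries were near each other (NE 3.51 and 3.87). Ier2 rose from 6 UMIs in 6 barcodes to 35 in 8 (8.50 times, 3.54 to 24.7) and Fosb from 18 in 9 to 47 in 11 (3.80 times, 2.17 to 6.96). Of 12 immediate early genes measured, 5 were higher and 0 lower, with a median log2 ratio of 0.90, and the others called were Socs3 (2.02 times) and Klf6 (2.19 times). Without the barcode richest in each, Socs3 was at 1.25 and Klf6 at 0.752, and neither was called. The rise was not limited to OPCs: the list's median was 1.55 in NFOs and 0.92 in oligodendrocytes.

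Cfl1 (cofilin, which severs actin filaments) was found in nearly every injured OPC. It had 109 UMIs in 27 of 58 uninjured and 218 UMIs in 16 of 17 injured OPCs, with a median NE of 0 and 2.81, and the ratio was 2.91 (2.31 to 3.70), against 1.71 in NFOs and 1.29 in oligodendrocytes. Tpm3 (tropomyosin) rose 5.58 times (2.21 to 16.8), and Itgb1, the integrin beta 1 subunit, rose 3.16 times (2.09 to 4.87) with 76 UMIs in 13 of 17 injured OPCs. Itgb1 was also 4.64 times higher in NFOs and 2.65 times in oligodendrocytes. Pmepa1, a regulator of TGF-β signalling, rose from 4 UMIs in 4 barcodes to 24 in 10 (8.74 times, 3.003 to 34.7), and Glud1, glutamate dehydrogenase, from 4 in 4 to 21 in 9 (7.65 times). The remaining leading genes were Cdkn1a (5.10 times), which arrests the cell cycle, the replication factor Rfc3 (5.83 times), the nucleolar Npm1 (2.99 times) and Rps27l (3.33 times). All 12 leading genes kept their call with the barcode holding most of their UMIs left out. Without the OPCs with at least 2 mitosis genes, 7 of the 12 could be measured, and these kept their call. Ier2, Pmepa1, Glud1, Cdkn1a and Rfc3 could not be measured there. Among OPCs under 8000 UMIs 6 of the 12 could be measured and 4 kept their call, while Npm1 came to 1.37 (0.552 to 3.005) and Rps27l to 2.25 (0.865 to 5.24). With barcodes weighted equally Glud1 came to 4.47 with a lower limit of 0.998 and was not called.

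**Figure D3:**
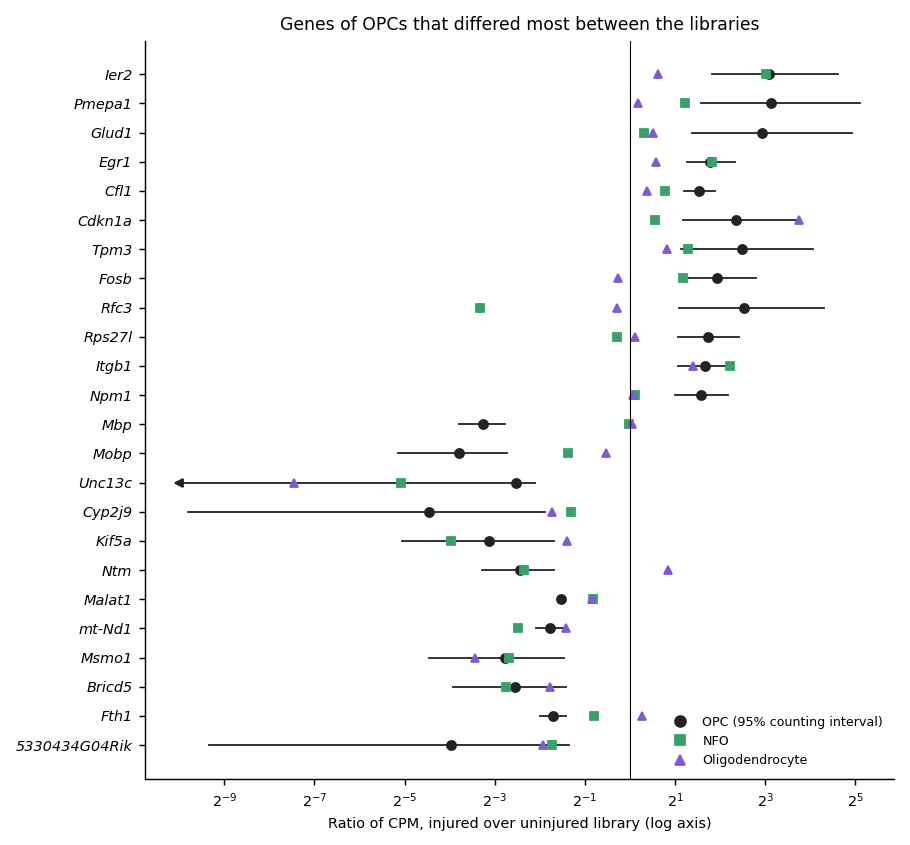
Ratio of CPM of the injured over the uninjured library (log axis) for the 12 genes most clearly higher and the 12 most clearly lower in injured OPCs. Black points with lines are OPCs with 95% counting intervals, green squares NFOs and purple triangles oligodendrocytes, an arrow marks an interval that reaches 0, and a class with 0 UMIs was set to 3 UMIs. Cfl1 and Npm1 lie further right in OPCs than in the later types, whereas Mbp is at 0.105 in OPCs and near 1 in both later types.

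Of the glycolysis genes 4 were called higher in injured OPCs, whereas ribosomal protein genes were called no more often than all genes. Of 83 ribosomal protein genes measured, 7 were called higher (Rpl21, Rpl41, Rpl6, Rplp0, Rps26, Rps27l and Rpsa) and 0 lower, a share below the 9.58% of all genes. Their ratio was above 1 in 78 of 83, with a median log2 ratio of 0.66 in OPCs, -0.08 in NFOs and -0.17 in oligodendrocytes. Of 11 glycolysis genes, 4 were higher and 0 lower (median log2 0.98, against -0.01 in NFOs and -0.35 in oligodendrocytes): Ldha, lactate dehydrogenase A, at 2.91 times (1.71 to 5.11), Pkm at 2.46 times, Tpi1 at 2.30 times and Gapdh at 2.06 times. Without the 3 injured OPCs and the 1 uninjured OPC with at least 2 mitosis genes, the median of the glycolysis list was 0.23. Heat shock genes had 2 of 11 higher (Dnaja1 at 2.87 times and Hspa9 at 2.91 times) and a median of 0.77.

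Mitochondrial transcripts were lower. Of 12 measured, 0 were higher and 4 lower: mt-Nd1 (0.294 times, 525 against 106 UMIs), mt-Nd3, mt-Co3 and mt-Nd2. The list's median log2 ratio was -0.71 in OPCs, -1.16 in NFOs and -0.62 in oligodendrocytes. The median share of mitochondrial UMIs in a barcode was 5.77% without injury and 3.33% after it.

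Cholesterol synthesis genes were lower throughout the lineage. Of 13 measured in OPCs, 7 were lower and 0 higher, with a median log2 ratio of -1.18, against -1.62 in NFOs and -1.97 in oligodendrocytes. Without OPCs with 2 myelin genes the median in OPCs was -0.67, and in the other settings run it lay between -1.32 and -1.04. The part of free oligodendrocyte RNA in the lower levels of OPCs was not tested. Msmo1, a sterol oxidase, had 50 UMIs in 27 of 58 uninjured and 5 UMIs in 4 of 17 injured OPCs, a ratio of 0.146 (0.0453 to 0.363), and was 0.155 in NFOs and 0.0922 in oligodendrocytes. The other genes called were Hmgcs1 (0.378 times), Fdft1 (0.188 times), Fdps (0.442 times), Sc5d (0.139 times), and the regulators Insig1 (0.262 times) and Srebf2 (0.270 times).

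**Figure D4:**
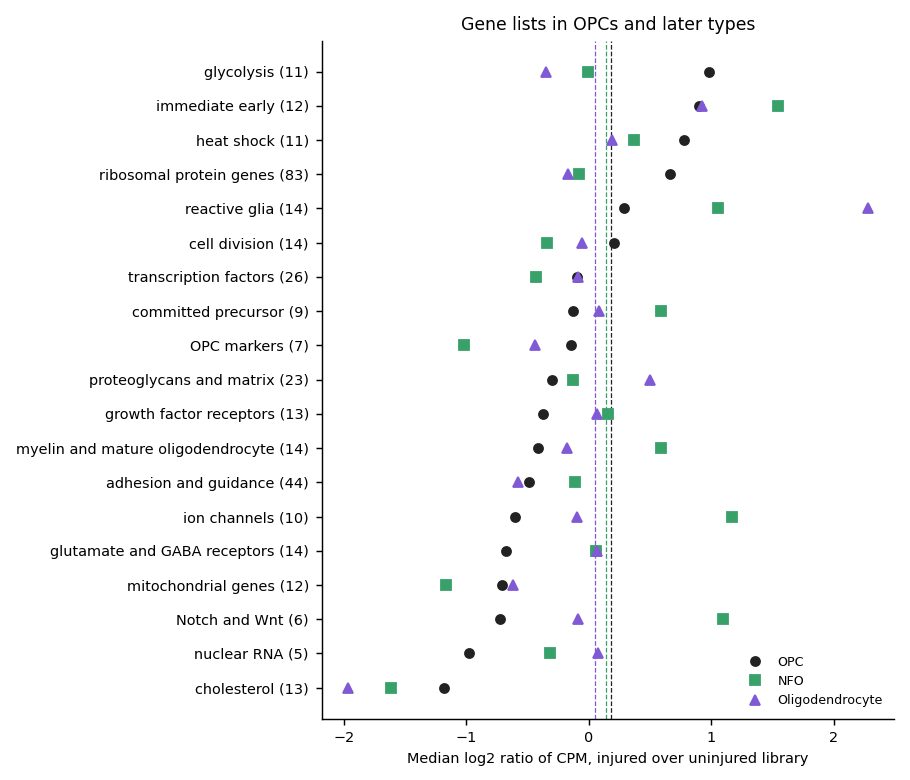
Median log2 ratio of CPM of the injured over the uninjured library for each gene list with at least 5 genes measured in OPCs (number measured in OPCs in brackets), in OPCs (black circles), NFOs (green squares) and oligodendrocytes (purple triangles), with dashed lines at the median of all measured genes of each type. Glycolysis and ribosomal protein genes lie right of the later types in OPCs, and cholesterol genes lie left of all dashed lines in every type.

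Pdgfra was the 1 OPC marker of 7 called between the libraries. Pdgfra was at 961 CPM (792 to 1155) in injured OPCs, with 113 UMIs in 13 of 17 barcodes and a highest NE of 3.10, and the ratio to uninjured OPCs was 0.449 (0.360 to 0.555). The ratio was 0.492 among OPCs of at least 3000 UMIs and 0.533 among those under 8000, the second of which was not called. The barcodes of the 2 libraries overlapped. A Pdgfra UMI was missing in 4 of 17 injured and 5 of 58 uninjured OPCs, and the part of depth in this was not tested. The ratios of the other 6 markers ran from 0.714 (Cspg4, 0.494 to 1.02) to 1.29 (C1ql1, 0.973 to 1.72), and none was called. Among OPCs under 8000 UMIs, however, Cspg5 was at 0.398 (0.296 to 0.526) and C1ql1 at 0.471 (0.198 to 0.962), and Cspg5 was at 0.623 with barcodes weighted equally. Among NFOs, 4 of the 7 markers were lower in the injured library and 0 higher.

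Most of the other receptor, adhesion and matrix genes called were lower, with Col11a1 and Itgb1 higher. Over all 3153 measured genes 5.84% were called lower and 9.58% higher. The counts here and in the next paragraph stand beside these shares, and those of matrix genes and transcription factors were near them. Of 13 genes of the growth factor receptor list, 3 were lower and 0 higher. These were Pdgfra, and Il1rap (0.392 times) and Calcrl (0.474 times), which are receptors of other kinds. Ntrk2, the receptor for brain-derived neurotrophic factor, was at 0.524 (0.357 to 0.755), just short of the 2-fold limit. Of 6 Notch and Wnt genes, 2 were lower, Notch1 (33 against 9 UMIs, 0.397 times) and the Delta-like gene Dll3 (35 against 8, 0.333 times). Notch1 came to 1.17 times when barcodes were weighted equally, and to 0.824 among OPCs under 8000 UMIs, and was called in neither. Of 23 matrix genes, Bcan (brevican, 138 UMIs in 48 OPCs against 41 in 10, 0.433 times, 0.298 to 0.617) and Chst11 (0.357 times), a chondroitin sulfotransferase, were lower, and Col11a1 (2.04 times) was higher. Of 44 adhesion and guidance genes, 7 were lower and 1 higher (Itgb1). Ntm, a membrane adhesion protein, fell from 126 UMIs in 45 OPCs to 16 in 10 (0.185 times, 0.103 to 0.312), and Cadm1 (0.291 times), C1ql2 (0.314), Nlgn1 (0.353), Sema6d (0.380), Epha5 (0.416) and Sema5a (0.471) were the others.

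Receptors for glutamate and GABA had 2 of 14 genes lower, the GABA-B receptor subunit Gabbr1 (46 against 7 UMIs, 0.222 times, 0.0844 to 0.494) and Grin3a (0.486 times), and a median log2 ratio of -0.68. Gria2 was at 0.550 (0.427 to 0.703). Of 10 ion channels, 0 were called in either direction, with a median of -0.60. Of 26 transcription factors, Id2 (0.347 times), an inhibitor of differentiation, and Etv5 (0.392 times) were lower and Klf6 was higher, and Olig1 and Olig2 were at 1.17 (1.03 to 1.33) and 1.02 (0.806 to 1.297). Among OPCs under 8000 UMIs Olig2 was at 0.331 (0.149 to 0.644) and Olig1 at 1.07. Among committed precursor genes, 2 of 9 were lower, Neu4 (0.423 times) and Itpr2 (0.492 times). Gpr17 was at 0.523 (0.340 to 0.786). Kif5a, a neuronal kinesin, at 0.114 (0.0300 to 0.311), and Unc13c were also among the 12 most clearly lower genes. Unc13c had 25 UMIs in 19 uninjured and 0 in injured OPCs. Its ratio was 0.175 with 3 UMIs in place of 0, with an upper limit of 0.232. Cyp2j9, Bricd5 and 5330434G04Rik completed this group with Fth1, the ferritin heavy chain, at 0.308 (0.253 to 0.373).

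At least 2 of 8 mitosis genes were found in 1 of 58 uninjured (1.72%, 0.0436 to 9.24%) and in 3 of 17 injured OPCs (17.6%, 3.80 to 43.4%), and these intervals overlapped. At least 2 of 7 S phase genes were found in the same uninjured barcode (1.72%, 0.0436 to 9.24%) and in 5 of 17 injured OPCs (29.4%, 10.31 to 55.96%), and these intervals did not overlap. The 5 injured OPCs held 53, 26, 4, 3 and 2 S phase UMIs, and the uninjured barcode held 14. With at least 2 UMIs required of a gene, 2 mitosis genes were found in 1 of 58 uninjured and 2 of 17 injured OPCs. The injured OPCs were deeper, with a median of 4120 UMIs against 2290. The dividing uninjured OPC was the deepest of its library, with 12673 UMIs, and held 50% of the UMIs of the cell division list. The injured OPCs with division genes included the deepest barcode, with 16983 UMIs. Among the 19 uninjured and 10 injured OPCs of at least 3000 UMIs, each thinned to 3000 UMIs (also chosen after seeing the data), 2 S phase genes were found in 0 uninjured OPCs (which allows up to 17.6%) and in 3 injured OPCs (30%, 6.67 to 65.2%), and 2 mitosis genes in 1 and 2 OPCs. The intervals overlapped for both classes. Thinning to 500 UMIs left only 2 mitosis and 5 S phase UMIs in all injured OPCs, too few for a comparison. Of 14 genes of the cell division list measured, 3 were higher, and Top2a was lower through the single uninjured barcode. Over all measured genes 9.58% were higher and 5.84% lower. Mcm6, a helicase subunit of replication, had 0 UMIs in uninjured OPCs and 27 in 3 injured barcodes. Its ratio was 13.1 with 3 UMIs in place of 0, with a lower limit of 9.95. The others were Rrm2 at 5.10 times and Cdkn1a, a gene that arrests the cell cycle. Rrm2 was at 1.14 times without its richest barcode. Ccnd1 was level between the libraries, at 1.04 (0.858 to 1.25).

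**Figure D5:**
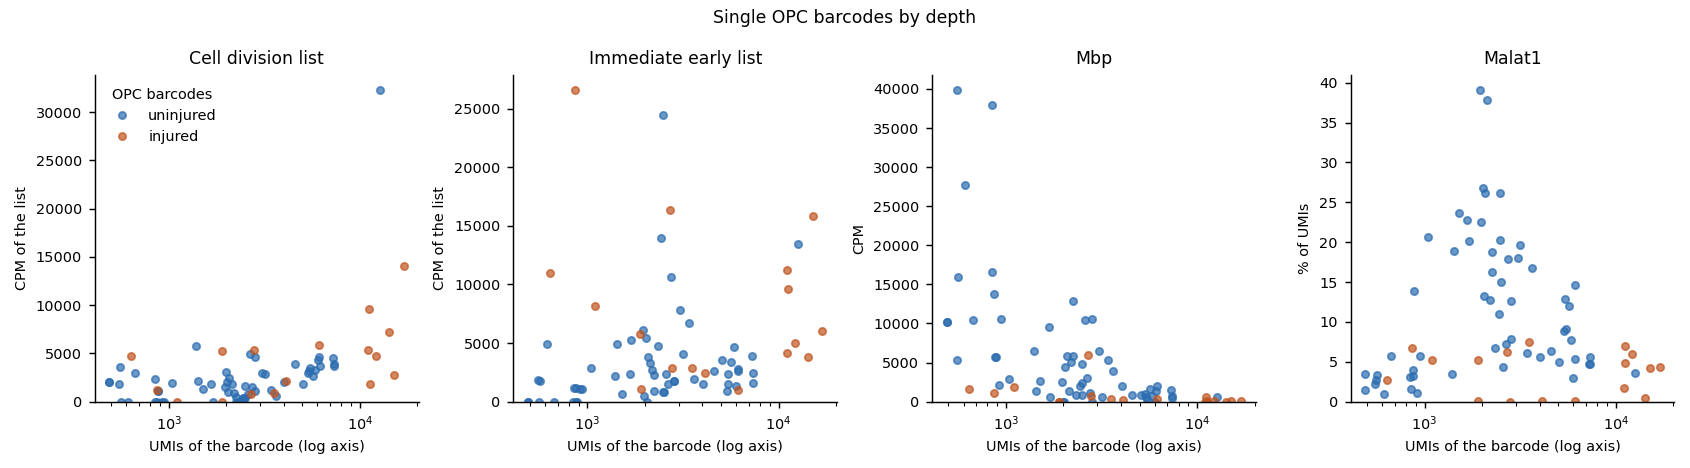
Each point is an OPC barcode, uninjured in blue and injured in orange, placed by its UMIs (x axis, log scale) and by the CPM of the cell division list, of the immediate early list and of Mbp, and by the percent of its UMIs from Malat1 (y axes). The 7 deepest injured OPCs lie right of almost all uninjured OPCs, 1 uninjured barcode reaches 32273 CPM of division genes, and Mbp is highest in shallow uninjured barcodes.

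The myelin genes Mbp and Mobp were much lower in injured OPCs, while the myelin list as a whole summed to 10191 CPM in uninjured and 7585 CPM in injured OPCs. Mbp (myelin basic protein) had 500 UMIs in 54 of 58 uninjured and 36 UMIs in 13 of 17 injured OPCs, with a median NE of 3.29 and 1.23 and a highest of 5.99 and 4.10. The ratio was 0.105 (0.0726 to 0.147) in OPCs, against 0.982 in NFOs and 1.04 in oligodendrocytes. It was 0.102 among OPCs of at least 3000 UMIs and 0.327 among those under 8000. Mobp fell from 142 UMIs in 47 OPCs to 7 UMIs in 1 (0.0718 times, 0.0284 to 0.152). Of 14 myelin genes measured, 4 were lower (Mbp, Mobp, Trf and Plekhb1) and 0 higher, with a median log2 ratio of -0.41. At least 2 of 6 myelin genes were found in 21 of 58 uninjured OPCs (36.2%, 24.0 to 49.9%) and in 2 of 17 injured OPCs (11.8%, 1.46 to 36.4%). Within uninjured OPCs the Mbp level was highest in barcodes of few UMIs, and oligodendrocytes, at 8238 CPM of Mbp, were 857 of the 959 lineage barcodes there. The part of free oligodendrocyte RNA in these levels was not tested.

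Marker genes of other cell types were followed with fixed lists, and OPCs may express some of these genes themselves. At least 2 of 11 immune markers were found in 0 of 58 uninjured OPCs and in 7 of 17 injured OPCs (41.2%). The same was true of the other types of the injured library: 44 of 100 NFOs and 141 of 293 oligodendrocytes, against 0 of 44 and 9 of 857 in the uninjured library. Lyz2 and Spp1, macrophage genes, each had 0 UMIs in uninjured OPCs and 8 and 6 UMIs in injured OPCs, and Apoe had 127 and 171 UMIs (1.962 times, short of a call), against 49.9 times in oligodendrocytes. Of the immune list, 2 genes could be measured and 1, Ftl1 (2.55 times), was higher. Of 14 reactive glia genes, Vim (3.12 times), S100a6 (2.25 times), Tmsb10 (2.05 times) and Socs3 were higher and Cp (0.324 times) was lower. Of 4 antigen presentation genes measured, H2-K1 (0.317 times) was lower and 0 were higher. Of 5 nuclear RNAs, Malat1 (0.347 times, 0.335 to 0.358) and Meg3 (0.341 times) were lower.

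Astrocyte markers were found at similar shares, with at least 2 of 8 in 23 of 58 uninjured (39.7%) and 7 of 17 injured OPCs (41.2%). The later types held them less often: 4 of 44 NFOs and 58 of 857 oligodendrocytes without injury, and 6 of 100 and 19 of 293 after it. Of the 4 measured astrocyte genes 0 were called. Gfap, the defining astrocyte gene, had 5 and 4 UMIs. No OPC held 2 fibroblast and pericyte, endothelial or Schwann cell markers in either library. Single endothelial or fibroblast markers were found in 3 of 17 injured and 0 of 58 uninjured OPCs for each list, and a single Schwann cell marker in 25 of 58 uninjured (43.1%) and 7 of 17 injured OPCs (41.2%). Of the Schwann list, the 1 measured gene (Pmp22, 0.624 times, 0.356 to 1.06) was not called. Neuron markers were found in pairs in 3 of 58 uninjured and 0 of 17 injured OPCs. At least 1 was found in 17 of 58 OPCs, 2 of 44 NFOs and 18 of 857 oligodendrocytes without injury. After injury it was 3 of 17, 4 of 100 and 0 of 293. Snap25, a synaptic vesicle fusion protein, fell from 26 UMIs in 17 OPCs to 3 in 2 (0.168 times, 0.0326 to 0.548), as 1 of 2 measured neuron genes. The part of such RNA in the differences between the libraries was not tested.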

How the data were processed

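Cells of 5 pooled optic nerves per condition were captured with 10x Genomics chemistry. The submitters' processing notes name bcl2fastq 2.17.1.14, Cell Ranger 1.3, Seurat 4.0.3 and the mm10 build. The authors filtered cells, drew equal numbers per library, typed them and deposited NE on a natural log scale. Their upper limit on UMIs was set against doublets, and no doublet caller was run here. The log was undone and each barcode's smallest nonzero value was taken as 1 UMI, which gave whole numbers within 0.001 in 100% of barcodes. The table joining both libraries was not used.

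UMIs were summed per type and library, with exact Poisson, binomial and conditional 95% intervals that cover counting error only (Python 3.11.15, scipy 1.17.1). A class with 0 UMIs was set to 3 UMIs. On simulated counts for the comparison of injured and uninjured OPCs, 96.5% of 200 genes changed 4-fold were called in the right direction among 3181 genes. These counts held counting error only and no variation between barcodes, so they do not measure how far single barcodes carry a call. With 1 library a condition, the authors' EdgeR test of cell numbers and their ANOVA were not repeated. Genes named were the 7 markers, the 20 leading OPC genes, the 12 leading genes in each direction among those found in at least 25% of OPC barcodes of the library where they were higher, called members and up to 6 abundant members of each gene list, and genes the study names. Genes high in OPCs of both libraries and a few further list members were named after their values were seen. Of 31053 gene names, 30438 matched GENCODE, 4 rows that shared a name were left out, and 3 list members were not found. A few list members are not reported here and were left out of the lists. The members and lists were chosen with earlier results of these data known. Alternatives varied the cell filter, OPC definition, minimums, folds and scaling, and limits on depth, division genes, Malat1 and single barcodes were added after seeing the data.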

Additional observations from a re-analysis of the deposited data

How the results depend on the processing

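No paired analysis was possible because each condition has 1 library. Few barcodes and uneven depth limited the comparison: 17 injured OPCs carry it, and 7 of them hold 78.2% of the UMIs. Injured OPCs under 8000 UMIs held 21.8%, so that limit changed both depth and the number of UMIs counted. Of the 79 named genes called between libraries, 53 kept their call and 14 lost it among OPCs of at least 3000 UMIs, and 27 kept it, 34 lost it and 2 changed direction among OPCs under 8000 UMIs, while the rest could not be measured. Without the barcode richest in the gene, 55 kept their call, 20 lost it and 4 changed direction. The cause was not tested. The shares of OPCs in the lineage moved by less than their intervals under the alternatives run.

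Genes higher in uninjured OPCs than in both later types numbered 34 (not 81) without OPCs with 2 myelin genes, 21 at a minimum of 50 UMIs, 222 at 2-fold and 37 among OPCs of at least 3000 UMIs. In injured OPCs they numbered 15 (not 60) at 50 UMIs, 429 with a minimum of 1 UMI, 177 at 2-fold and 12 under 8000 UMIs. Genes higher after injury numbered 102 at 50 UMIs, 516 at 1 UMI, 478 at 1.5-fold, 132 under 8000 UMIs and 182 at 3000 UMIs or more (302 as reported). Genes lower numbered 115 without OPCs with 2 myelin genes, 317 with barcodes weighted equally, 63 at 50 UMIs, 277 at 1 UMI, 67 under 8000 UMIs and 102 at 3000 UMIs or more (184 as reported). The median log2 ratio of the cell division list was 1.19 with barcodes weighted equally, 0.95 without the deepest barcode, 1.88 without OPCs with 2 myelin genes and 0.97 without OPCs with 2 division genes, that of the immediate early list was 1.51 without the deepest barcode and 1.60 without OPCs with 2 division genes, and that of the glycolysis list was 0.23 without OPCs with 2 division genes. The shares of OPCs with markers of a class fall with depth. Thinned to 500 UMIs, they were 0% for mitosis genes in injured OPCs, 0% and 5.88% (uninjured, injured) for S phase genes (0% in uninjured OPCs at 3000 UMIs), 42.9% and 41.2% (uninjured, injured) for committed precursor, 64.3% and 23.5% for oligodendrocyte, 5.36% and 0% for astrocyte, 0% for immune in injured OPCs, 16.1% and 11.8% for a single Schwann cell marker and 0% for neuron markers in uninjured OPCs. With 2 UMIs required they were 62.1% and 70.6% for committed precursor, 81.0% and 47.1% for oligodendrocyte, 8.62% and 17.6% for astrocyte, 5.88% for immune in injured OPCs, 17.2% for a Schwann cell marker and 0% for neuron markers in uninjured OPCs.

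Single genes changed direction as follows, on the log2 scale. Without the barcode with most of their UMIs, Mirt1 came to 0.48, Top2a to 1.85, Hist1h2ae to 2.02 and Klf6 to -0.41. With barcodes weighted equally Notch1 came to 0.22. Among OPCs under 8000 UMIs, Trf came to 0.043 and Tpi1 to -0.62. Scaling changed no direction among these genes: 75 of the 79 called genes kept their call with trimmed mean scaling, and 75 without mitochondrial, ribosomal and Malat1 UMIs in the total, where Col11a1, Tmsb10, Socs3 and Gapdh fell below 2-fold.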
